A study of Mus musculus with 18 samples.

Results

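The genes described here make up the digestive compartment of the cell: 40 mouse genes for lysosomal hydrolases, lysosomal membrane proteins and the proton pump that acidifies the lumen, of 23102 genes measured. The rule lists the genes by name and sets no threshold on a measured value, but the list was drawn up with earlier results of these data known. By role they divide into 21 hydrolases (9 proteases, 9 glycosidases that cut sugar chains and 3 lipid hydrolases), 2 lumenal precursor proteins, 5 membrane proteins, 10 subunits or accessory proteins of the vacuolar H+-ATPase (V-ATPase), and 2 transcription factors, Tfeb and Tfe3. The precursor proteins Psap and Grn and the 2 transcription factors are neither hydrolases, membrane proteins nor pump subunits, and they are given apart from the rest.

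The cells were J774, an established mouse macrophage line that takes up particles, grown in serum-supplemented medium without phenol red, a dye with weak estrogen activity. All 18 arrays came from that 1 line after 24 hours of exposure, with 3 arrays in each of 6 groups. The groups were vehicle alone, 17-β estradiol at 2 µg/mL, talc at 10 µg per well, talc with estradiol, titanium dioxide (TiO2) at 10 µg per well, and TiO2 with estradiol. TiO2 is a second mineral particle and serves here as a particle comparator for talc. Whether the 3 arrays of a group stand for independent cultures is not stated in the labels, so p-values measure the spread between these arrays, which may be technical. RNA came from whole wells, where fewer cells of a type and less RNA per cell cannot be told apart.

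Lysosomes receive particles after phagocytosis and break down the material that arrives with them. Their hydrolases are made as glycoproteins, sorted by mannose 6-phosphate receptors and active at acid pH, which the V-ATPase maintains by pumping protons: its membrane-embedded V0 sector forms the proton path and its cytosolic V1 sector hydrolyses ATP. TFEB and TFE3, of the MiT family of transcription factors, are held in the cytosol when the kinase mTORC1 is active on the lysosomal surface. When released they enter the nucleus and bind E-box sequences (the CLEAR element, with CACGTG at its core) near many lysosomal genes.

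The rule did not use the sequence in front of the genes, but CACGTG was searched because it is known near many lysosomal genes. A higher share among these genes is therefore not independent of their choice. RefSeq promoters (GRCm38.p6, 250 bases before to 50 after the annotated start) could be matched for 33 of the 40 genes. CACGTG, which is its own reverse complement and so reads alike on both strands, occurred in 12 of those 33 (36.4%), against 8.09% of the 27025 genes in the same table and 7.15% of its 32851 promoters. The longer TCACGTG, which contains it and was searched on both strands, occurred in 11 of 33 (33.3%) against 4.29% of genes and 3.77% of promoters. A still longer form, with 2 fixed bases on each side of CACGTG, was also searched. It occurred in 0 of 33, against 0.37% of genes and 0.326% of promoters. With so low a share, 0 of 33 cannot set these genes apart from the rest. The matches described here are therefore to the shorter forms only. CACGTG was present in 8 of 18 hydrolases, 2 of 5 membrane proteins, 2 of 6 V-ATPase genes, 0 of 2 precursor proteins and 0 of 2 transcription factors with a matched promoter. The match describes these windows only, and binding was not measured. The genes of the table were not matched to the lysosomal genes in base composition.

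The following 50-base stretches, printed on the strand of the gene, are shown because genes with the same hexamer behaved differently in these arrays: Glb1 and Naglu fell with talc, Gla rose, and Ctsd, Mcoln1 and Lamp1 did not pass. Capitals mark the CACGTG. Further copies of it within a stretch are in lower case.
Glb1: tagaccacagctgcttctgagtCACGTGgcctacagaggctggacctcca
Naglu: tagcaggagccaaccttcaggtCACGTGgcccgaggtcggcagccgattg
Gla: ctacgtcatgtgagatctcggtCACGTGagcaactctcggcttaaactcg
Ctsd: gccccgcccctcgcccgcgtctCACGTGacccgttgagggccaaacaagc
Mcoln1: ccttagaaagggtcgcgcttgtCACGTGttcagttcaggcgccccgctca
Lamp1: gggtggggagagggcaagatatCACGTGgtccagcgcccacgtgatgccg

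The stretches lie at chr9:114401008-114401057 on the plus strand for Glb1 and at chr11:101069999-101070048 on the plus strand for Naglu. Those of Gla and Ctsd lie at chrX:134601172-134601221 and chr7:142387898-142387947, both on the minus strand. Those of Mcoln1 and Lamp1 lie at chr8:3500426-3500475 and chr8:13159078-13159127, both on the plus strand. Counted from the annotated start, the first base of the marked hexamer stood at -48 in Glb1, -73 in Naglu, -194 in Gla, -98 in Ctsd, -71 in Mcoln1 and -61 in Lamp1. Each stretch ended before that start. Lamp1 carried 4 copies in its window, Gla, Ctsd and Mcoln1 carried 2 each, and Glb1 and Naglu carried 1 each. The other genes with a match were Lgmn, Ctsa, Gaa, Ctsl, Atp6v1a and Atp6v0d1, of which Lgmn fell with talc, Atp6v0d1 rose and the other 4 did not pass. Lgmn has 2 annotated starts in the table, and the hexamer lay at -49 from the downstream one. In Man2b1, Hexa, Gusb, Psap, Grn and Scarb2, which fell with talc, the hexamer was not found in the window searched. Asah1 and Ctsh, which also fell, had no matched promoter.

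Levels are given as log2 of the deposited intensity, averaged over the probe sets of a gene, and differences are in log2 units ± standard error from limma. The threshold was a two-sided p of 0.05 after Benjamini-Hochberg adjustment across the 23102 genes. The medians of the 18 arrays lay between 45.6 and 48.0 on the linear intensity scale, and the median standard error over genes was 0.15 for 3 arrays against 3. Upper quartiles of the arrays lay between 222 and 249, and the 3 lowest were those of TiO2 with estradiol (233, 232 and 222). The macrophage markers Cd68 (12.67 in vehicle), Csf1r (10.91) and Spi1 (9.98) were far above the median gene, which stood at 4.73. The mean of the 10 macrophage markers ranged from 9.62 to 9.66 in the vehicle arrays and from 9.28 to 9.40 in the talc arrays. It was also below vehicle in the other groups, at 9.41 to 9.45 in talc with estradiol, 9.37 to 9.58 in TiO2, 9.39 to 9.45 in TiO2 with estradiol and 9.48 to 9.53 in estradiol. Of these markers Mrc1 (-1.28), Adgre1 (-0.49) and Itgam (-0.47) fell and Cd14 (0.32) rose on average over both talc comparisons. Of 28 markers of dendritic cells, granulocytes, lymphocytes, epithelium and fibroblasts, only Pdgfra passed (-0.78), and the means of these lists stayed between 3.38 and 4.68 on every array. Their part in the results below was not tested. Of the 40 lysosomal genes, 38 stood above the median gene, and Cd63 (3.46) and Atp6v0d2 (2.75) stood below it.

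Transcript levels of a set of lysosomal hydrolases and their companions were lower with talc. Averaged over the comparison with vehicle and the comparison within estradiol, 11 of the 40 genes fell and 5 rose. The fallers were the proteases Lgmn and Ctsh, the glycosidases Man2b1, Glb1, Naglu, Gusb and Hexa, the ceramidase Asah1, the precursors Psap and Grn, and the membrane protein Scarb2. The risers were Atp6v1h, Atp6v0d1 and Atp6v1c1 of the V-ATPase, the glycosidase Gla and the factor Tfe3. The largest of these average changes were in Man2b1, to 58.1% of its level without talc, in Lgmn, to 63.6%, and in Atp6v1h, to 151%. With the brightest probe set for each gene 2 rose and 6 fell, with the median of probe sets 1 and 11, and after quantile normalisation 2 and 11; the V-ATPase genes that rose then numbered 1, 1 and 2. The fallers stayed at 11 or 12 when any single array was left out, and the risers did not: 2 rose without vehicle replicate 1, vehicle replicate 2, estradiol replicate 1, estradiol replicate 2, talc replicate 3 or talc plus estradiol replicate 2. Without vehicle replicate 3, estradiol replicate 3, talc replicate 1, talc replicate 2 or talc plus estradiol replicate 3, 3 rose.

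The background was high in this average: 16 of the 40 genes passed beside 14.8% of all genes, of which 7.92% were higher and 6.87% lower. Among the 11551 genes above the median level, where 38 of the 40 lie, 27.7% passed, 14.9% as higher and 12.8% as lower. The 5 of 40 higher is near that share for genes of like brightness, and the 11 of 40 lower is above it. The median change of the 40 genes was -0.08, with 13 positive and 27 negative, beside 0.01 over all genes. Of the 21 hydrolases, 1 rose and 8 fell, with a median of -0.13. Of the 10 V-ATPase genes, 3 rose and 0 fell, with a median of 0.14. All 6 arrays with talc lay below all 12 arrays without it in 7 of the 40 genes and above them in 4, beside 2.7% and 3.89% of all genes.

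**Figure D1:**
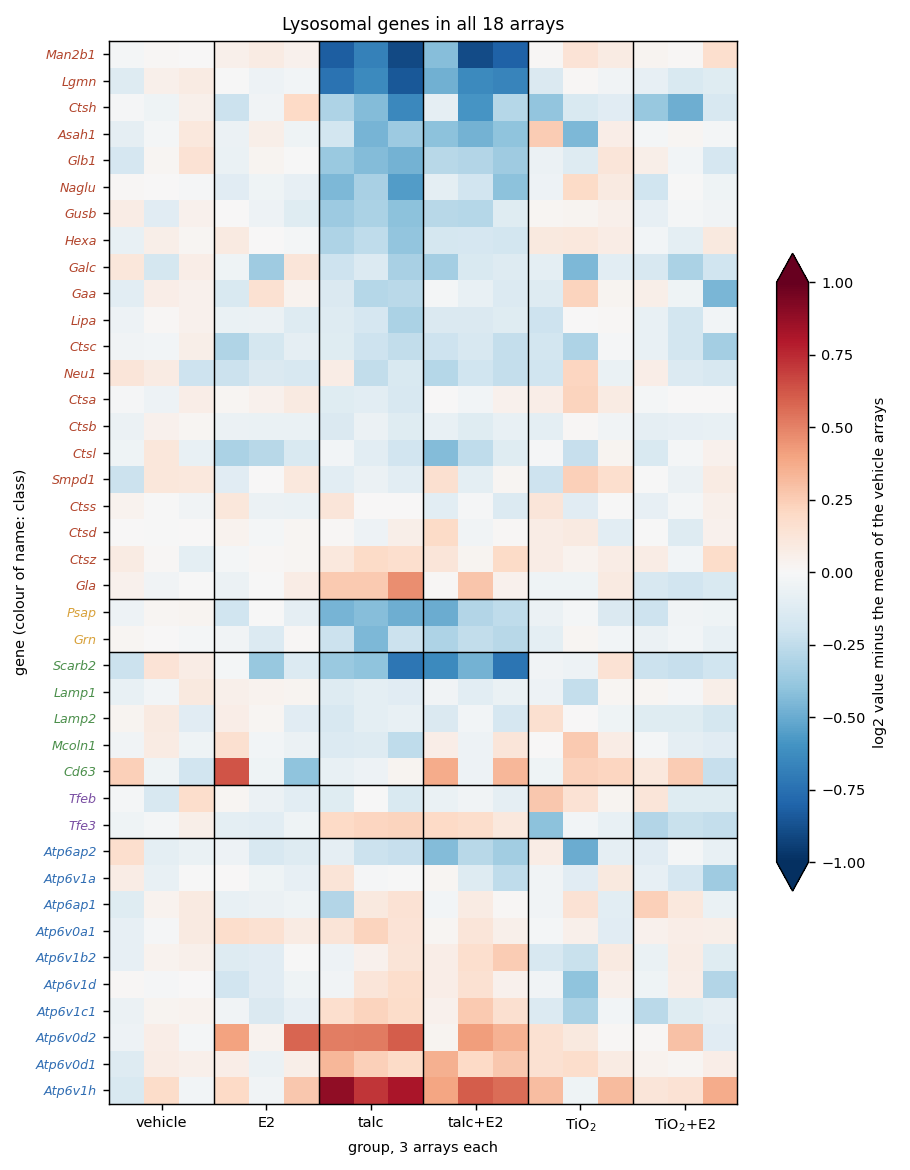
Difference of each of the 40 genes on each of the 18 arrays from the mean of the 3 vehicle arrays, in log2 units (blue lower, red higher), with genes in rows by role and arrays in columns by group (E2, estradiol). The columns with talc are blue for Man2b1, Lgmn and Psap and red for Atp6v1h; in the other columns the stronger colours are in single arrays, as for Cd63 and Atp6v0d2 in estradiol.

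Among the 9 proteases, Lgmn and Ctsh fell and 0 rose. Legumain, encoded by Lgmn, is a cysteine endopeptidase that cuts after asparagine and matures several cathepsins. Its levels were 10.70, 10.88 and 10.91 in vehicle and 10.09, 10.19 and 9.98 in talc. With estradiol they were 10.83, 10.78 and 10.80, and with talc and estradiol 10.35, 10.19 and 10.17. The talc arrays lay below the controls in both settings without overlap. The change was -0.74 ± 0.09 against vehicle (adjusted p = 8.7e-05), -0.56 ± 0.09 within estradiol (adjusted p = 0.0014) and -0.65 ± 0.07 on average (adjusted p = 3.4e-06).

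Ctsh encodes cathepsin H, an aminopeptidase. It measured 6.0, 5.97 and 6.07 in vehicle and 5.70, 5.58 and 5.37 in talc, with no overlap. In the estradiol arrays it measured 5.80, 5.98 and 6.22, and with talc and estradiol 5.92, 5.43 and 5.73, so that these groups overlapped. The change was -0.47 ± 0.14 against vehicle (adjusted p = 0.056) and -0.39 ± 0.10 on average (adjusted p = 0.015). The average no longer passed when the gene was represented by its brightest probe set or by the median of its probe sets.

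The other 7 proteases did not pass in either talc comparison or on average. They are the aspartic protease Ctsd, the cysteine cathepsins Ctsb, Ctsl, Ctss, Ctsz and Ctsc, which activates granule proteases, and Ctsa, which also protects the enzymes Glb1 and Neu1 in a complex. Their average changes ran from -0.10 ± 0.07 (Ctsc) through -0.09 ± 0.06 (Ctsa), -0.07 ± 0.06 (Ctsb), -0.06 ± 0.08 (Ctsl), -0.02 ± 0.07 (Ctss) and 0.03 ± 0.07 (Ctsd) to 0.13 ± 0.06 (Ctsz). Ctsz was the one whose talc arrays lay above the controls without overlap both against vehicle (0.15 ± 0.09) and within estradiol (0.11 ± 0.09).

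The glycosidases held the most changes, with 5 of 9 lower, 1 higher and a median of -0.26. Man2b1 encodes the lysosomal α-mannosidase, which trims mannose from N-glycans. It stood at 10.24, 10.27 and 10.26 in vehicle and at 9.43, 9.58 and 9.36 in talc. It stood at 10.31, 10.34 and 10.30 in estradiol and at 9.83, 9.37 and 9.45 in talc with estradiol. Both comparisons were without overlap and of nearly equal size, -0.80 ± 0.11 against vehicle (adjusted p = 0.00019) and -0.77 ± 0.11 within estradiol (adjusted p = 0.00041).

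Glb1 encodes the lysosomal β-galactosidase, which removes galactose from gangliosides and keratan sulfate. Vehicle arrays measured 8.97, 9.16 and 9.28 and talc arrays 8.77, 8.71 and 8.66. Estradiol arrays measured 9.07, 9.16 and 9.14 and those with talc and estradiol 8.86, 8.85 and 8.78. The talc arrays were lower without overlap in both, with differences of -0.42 ± 0.10 (adjusted p = 0.014) and -0.30 ± 0.10 (adjusted p = 0.098), and -0.36 ± 0.07 on average (adjusted p = 0.002).

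Gusb and Naglu act on glycosaminoglycans, as β-glucuronidase and as the α-N-acetylglucosaminidase of heparan sulfate. Gusb stood at 10.30, 10.11 and 10.27 in vehicle, 9.86, 9.91 and 9.81 in talc, 10.23, 10.17 and 10.11 in estradiol, and 9.95, 9.94 and 10.10 in talc with estradiol. Naglu stood at 9.80, 9.79 and 9.77 in vehicle, 9.34, 9.46 and 9.23 in talc, 9.67, 9.74 and 9.70 in estradiol, and 9.69, 9.60 and 9.38 in talc with estradiol. In both genes the talc arrays lay below vehicle without overlap. Within estradiol those of Naglu overlapped their controls, and those of Gusb all but touched them. Gusb differed by -0.37 ± 0.09 against vehicle (adjusted p = 0.013) and by -0.17 within estradiol (adjusted p = 0.31). Naglu differed by -0.44 ± 0.10 (adjusted p = 0.012) and by -0.15 (adjusted p = 0.49).

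Hexa, the α subunit of β-hexosaminidase, which degrades GM2 ganglioside, stood at 11.81, 11.94 and 11.91 in vehicle and 11.58, 11.63 and 11.49 in talc. In estradiol it stood at 11.98, 11.89 and 11.86 and in talc with estradiol at 11.71, 11.72 and 11.70. The talc arrays were lower in both settings without overlap, with -0.32 ± 0.09 (adjusted p = 0.026) and -0.20 (adjusted p = 0.21), and -0.26 ± 0.06 on average (adjusted p = 0.0066). The call of Hexa against vehicle was lost in 7 of 26 alternative settings: with the brightest or the median probe set, in the fit on the arrays compared alone, and without vehicle replicate 2, vehicle replicate 3, talc replicate 1 or talc replicate 3. Those of Glb1 and Gusb were lost in 5 each and that of Naglu in 4, talc replicate 3 left out being among the settings for all of them.

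Gla, the α-galactosidase A that clears globotriaosylceramide, was the hydrolase that rose. It measured 8.73, 8.65 and 8.69 in vehicle and 8.96, 8.95 and 9.16 in talc, and 8.63, 8.69 and 8.76 in estradiol and 8.70, 8.97 and 8.74 in talc with estradiol. The first pair of groups did not overlap and the second pair did. The change was 0.33 ± 0.10 against vehicle (adjusted p = 0.043), 0.11 within estradiol (adjusted p = 0.62) and 0.22 ± 0.07 on average (adjusted p = 0.038). The average lost its call in 11 of 26 alternative settings and the comparison with vehicle in 16 of 26, both among others when any 1 of the vehicle arrays was left out. The remaining glycosidases, Gaa for glycogen (-0.16 ± 0.09), Galc for galactosylceramide (-0.17 ± 0.09) and the sialidase Neu1 (-0.09 ± 0.09), did not pass on average.

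**Figure D2:**
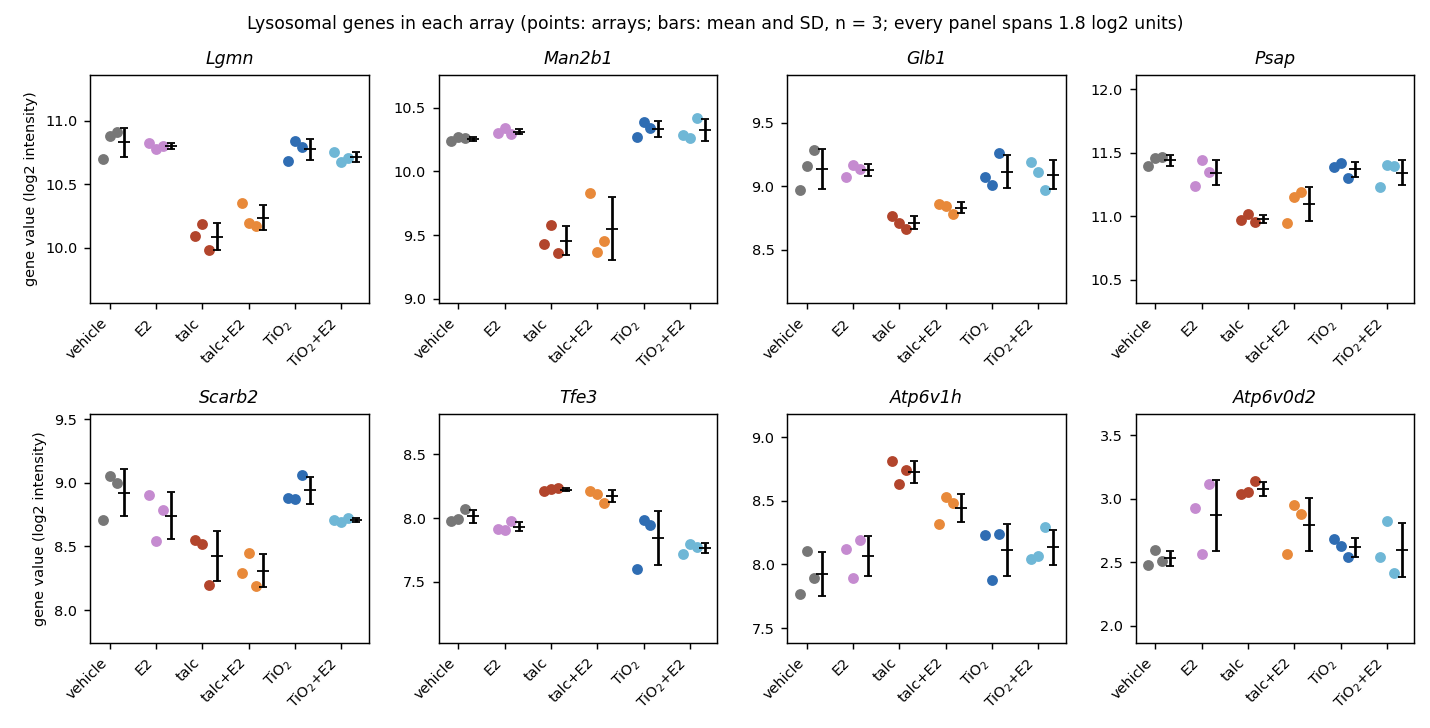
Log2 level on each of the 18 arrays for 8 of the genes that passed in a talc comparison, with points for arrays and bars for the mean and SD of the 3 arrays of a group (E2, estradiol); all panels span an equal range. The talc groups of Lgmn, Man2b1, Glb1 and Psap sit below the other 4 groups, those of Atp6v1h and Tfe3 sit above, and those of Atp6v0d2 overlap the estradiol arrays.

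Of the 3 lipid hydrolases, the acid ceramidase Asah1 fell on average. It measured 9.67, 9.74 and 9.86 in vehicle and 9.57, 9.29 and 9.39 in talc, and 9.70, 9.81 and 9.72 in estradiol and 9.34, 9.29 and 9.35 in talc with estradiol. The groups did not overlap in either setting. The changes were -0.34 ± 0.14 (adjusted p = 0.17), -0.42 ± 0.14 (adjusted p = 0.084) and -0.38 ± 0.10 on average (adjusted p = 0.013). The acid sphingomyelinase Smpd1 (-0.03 ± 0.09) and Lipa, the lipase of cholesteryl esters and triglycerides (-0.13 ± 0.06), did not pass.

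Both lumenal precursors fell. Psap encodes prosaposin, which is cut into the saposins that present sphingolipids to hydrolases. It stood at 11.39, 11.46 and 11.47 in vehicle, 10.97, 11.02 and 10.95 in talc, 11.24, 11.44 and 11.35 in estradiol, and 10.95, 11.15 and 11.19 in talc with estradiol. The talc groups lay below their controls without overlap, with differences of -0.46 ± 0.09 against vehicle (adjusted p = 0.0049) and -0.25 within estradiol (adjusted p = 0.14), and -0.35 ± 0.07 on average (adjusted p = 0.0013).

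Grn encodes progranulin, a secreted protein that prosaposin can carry to lysosomes, where it is cut into granulins. Its levels were 11.68, 11.67 and 11.64 in vehicle, 11.45, 11.22 and 11.45 in talc, 11.63, 11.53 and 11.68 in estradiol, and 11.36, 11.42 and 11.39 in talc with estradiol. Every array with talc was below every array without it. The average change was -0.26 ± 0.06 (adjusted p = 0.0084), while the separate comparisons, at adjusted p = 0.051 and 0.16, did not pass.

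Of the 5 membrane proteins, Scarb2 fell. Its product LIMP-2 carries glucocerebrosidase to lysosomes. It stood at 8.71, 9.06 and 9.0 in vehicle and 8.55, 8.52 and 8.20 in talc, and at 8.90, 8.54 and 8.78 in estradiol and 8.29, 8.45 and 8.19 in talc with estradiol. There was no overlap in either setting. The changes were -0.50 ± 0.13 (adjusted p = 0.021), -0.43 ± 0.13 (adjusted p = 0.0499) and -0.47 ± 0.09 on average (adjusted p = 0.0016). The second of these calls was lost in 18 of 26 alternative settings and the first in 5, among them without vehicle replicate 2, vehicle replicate 3 or talc replicate 3.

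The abundant coat glycoproteins of the lysosomal membrane were lower by the same small amount and did not pass: Lamp1 changed by -0.11 ± 0.06 on average and Lamp2 by -0.11 ± 0.07. Mcoln1, the calcium channel TRPML1, was at -0.08 ± 0.07. The tetraspanin Cd63 was at 0.06 ± 0.15. Its probe sets were dim and spread, from 1.53 to 5.25, so its values say little about the transcript.

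Of the transcription factors, Tfe3 rose and Tfeb did not pass (-0.05 ± 0.08). Tfe3 stood at 7.97, 7.99 and 8.07 in vehicle, 8.21, 8.23 and 8.24 in talc, 7.92, 7.91 and 7.97 in estradiol, and 8.21, 8.19 and 8.12 in talc with estradiol. Every array with talc was above every array without it. The separate changes of 0.21 (adjusted p = 0.25) and 0.24 (adjusted p = 0.18) did not pass, the average of 0.23 ± 0.07 did (adjusted p = 0.037), and that call was lost in 13 of 26 alternative settings. These are transcript levels, and the location of either factor in the cell was not measured.

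Of the 10 V-ATPase genes 3 rose on average, 0 fell and 8 had positive differences. Atp6v1h, the H subunit and a regulator of the V1 sector, carried the largest change. It measured 7.77, 8.11 and 7.90 in vehicle, 8.81, 8.64 and 8.74 in talc, 8.12, 7.89 and 8.19 in estradiol, and 8.32, 8.53 and 8.48 in talc with estradiol. No talc array overlapped its controls, and the arrays with talc alone lay above those with talc and estradiol. The change was 0.80 ± 0.13 against vehicle (adjusted p = 0.00063), or 175% of the vehicle level, 0.38 ± 0.13 within estradiol (adjusted p = 0.094) and 0.59 ± 0.09 on average (adjusted p = 0.0002).

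Atp6v1c1, the C subunit that joins V1 to V0, measured 10.38, 10.47 and 10.47 in vehicle, 10.60, 10.66 and 10.62 in talc, 10.40, 10.29 and 10.36 in estradiol, and 10.48, 10.70 and 10.60 in talc with estradiol. Every array with talc lay above every array without it. The separate changes of 0.19 (adjusted p = 0.3) and 0.24 (adjusted p = 0.17) did not pass and the average of 0.22 ± 0.07 did (adjusted p = 0.043), a call that was lost in 15 of 26 alternative settings.

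Atp6v0d1, the ubiquitous d subunit of the V0 sector, stood at 10.11, 10.31 and 10.29 in vehicle, 10.57, 10.47 and 10.42 in talc, 10.30, 10.17 and 10.29 in estradiol, and 10.59, 10.43 and 10.50 in talc with estradiol. It too was higher on every array with talc than on any without. The changes were 0.25 (adjusted p = 0.1), 0.26 (adjusted p = 0.1) and 0.25 ± 0.06 on average (adjusted p = 0.01). The average did not pass when the brightest probe set or the median of the probe sets was used.

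Atp6v0d2, the second d subunit, known from osteoclasts and fused macrophages, was dim. Its probe sets ran from 2.04 to 4.11, all below the median gene, so its values say little about the transcript. It stood at 2.48, 2.60 and 2.51 in vehicle and 3.04, 3.05 and 3.14 in talc, without overlap, and at 2.93, 2.56 and 3.11 in estradiol and 2.56, 2.95 and 2.88 in talc with estradiol, with overlap. It rose by 0.55 ± 0.14 against vehicle (adjusted p = 0.021) and differed by -0.07 within estradiol (adjusted p = 0.86). On average over both comparisons, where the gene did not pass, 7 of its 12 probe sets were higher and 5 lower. The call against vehicle was lost in 7 of 25 alternative settings. Of 9 genes of osteoclasts and fused giant cells, Mmp9 rose (0.43) and Itgb3 fell (-0.53). In vehicle, Ctsk (3.93), Acp5 (3.99), Calcr (3.75) and Oscar (3.95) were below the median gene, which stood at 4.73. Mmp9 (9.98), Dcstamp (8.82) and Nfatc1 (7.87) were far above it in vehicle, and Itgb3 (4.95) and Ocstamp (4.74) were near it.

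The other 6 V-ATPase genes did not pass on average. They were Atp6v1d of the central rotor stalk (0.15 ± 0.09), the nucleotide-binding Atp6v1b2 (0.14 ± 0.07) and the catalytic Atp6v1a (-0.02 ± 0.07) of V1, the V0 subunit Atp6v0a1 (0.04 ± 0.06), and the accessory proteins Atp6ap1 (0.03 ± 0.09) and Atp6ap2, the prorenin receptor (-0.21 ± 0.09).

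**Figure D3:**
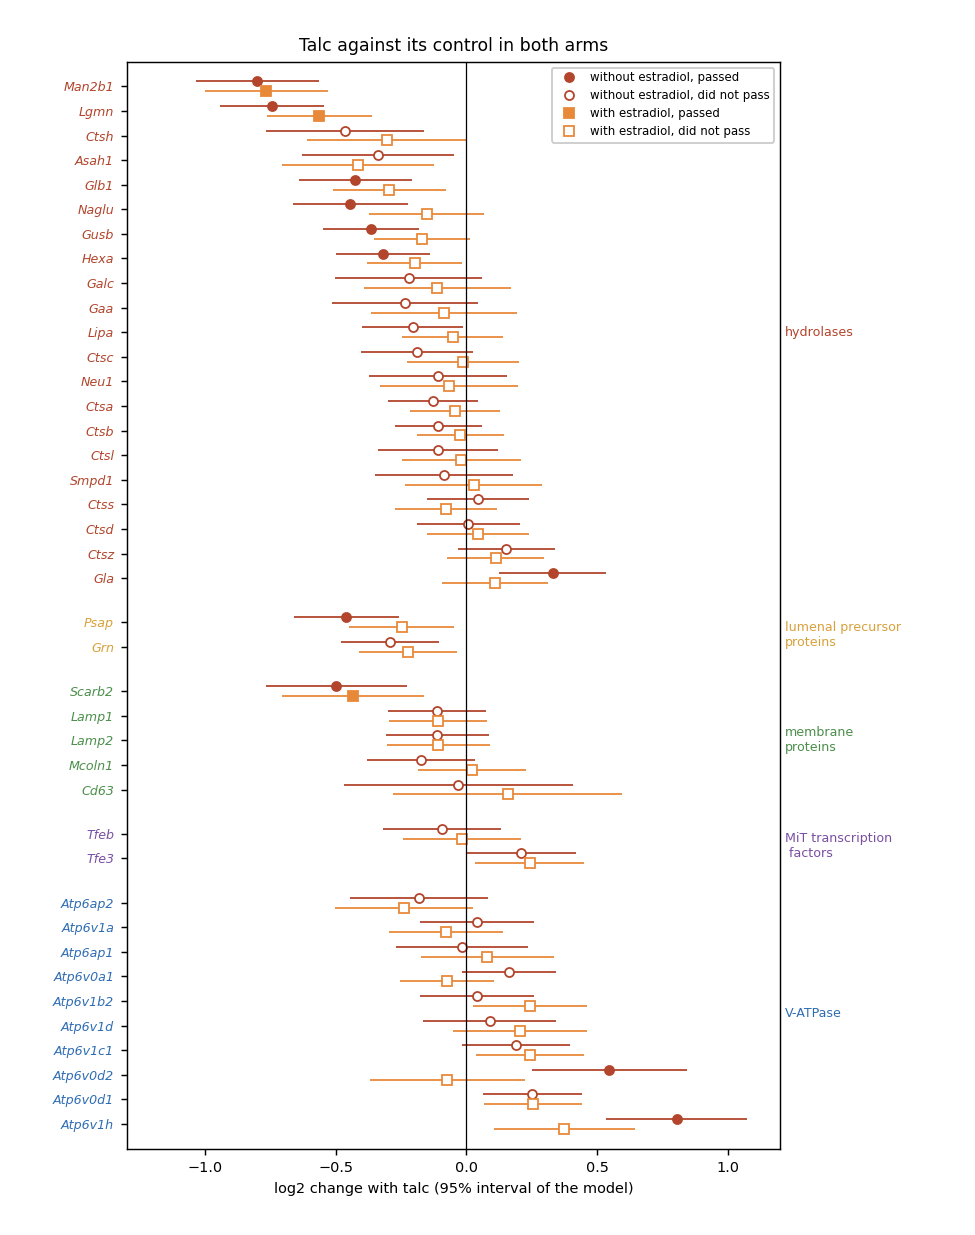
Difference between talc and its control for each of the 40 genes, in log2 units with 95% intervals from the model, without estradiol (circles) and with it (squares), filled where the gene passed. Most hydrolases lie left of 0 and most V-ATPase genes right of it, with Man2b1, Lgmn and Atp6v1h farthest out.

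Taken separately, the 2 talc comparisons gave different numbers of calls. Against vehicle 11 of the 40 genes passed, beside 8.46% of all genes and 15.8% of genes above the median level. Of the 40, 3 rose and 8 fell, beside 3.94% and 4.52% of all genes and 7.16% and 8.64% of genes above the median level. Within estradiol 3 passed, beside 7.13% of all genes and 13.3% of genes above the median level. These were Lgmn, Man2b1 and Scarb2, all lower, so that 0 rose and 3 fell, beside 4.13% and 3% of all genes and 7.79% and 5.47% of genes above the median level. This count is near the background, and it depended on the setting: 7 passed among genes above the median level, 11 with a trended robust variance and 6 with array weights. The shares of all genes that passed under those settings are not given here, so these 3 counts have no background beside them. Single arrays moved the count against vehicle, which was 4 without talc replicate 3, 5 without vehicle replicate 3 and 7 without vehicle replicate 2. Arrays did not overlap in 25 genes against vehicle (8 above, 17 below) and in 20 within estradiol (8 above, 12 below). Over all genes 13.6% were above and 12.6% below against vehicle, and 14.2% and 12% within estradiol. Such shares were not computed for genes above the median level. The hydrolase median was -0.21 against vehicle and -0.08 within estradiol, and the V-ATPase median 0.13 and 0.14. The difference between the comparisons was tested for each gene as an interaction and is given with the estradiol results.

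A gene's value is a mean over its probe sets, a median of 8 a gene in these data, so the probe sets show how evenly a change ran within a gene. On average over both comparisons, all 17 probe sets of Lgmn were lower and 13 passed on their own. Of 21 for Man2b1, 20 were lower and 19 passed, and the one that was higher (1.5) did not pass. All 16 for Atp6v1h were higher and 8 passed. All 16 for Psap and 14 for Grn were lower, with 6 and 2 passing. Scarb2 had 11 of 12 lower with 8 passing, Glb1 18 of 19 with 8, Gusb 14 of 17 with 6, Asah1 15 of 16 with 4 and Ctsh 14 of 16 with 2.

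In other genes the sum rested on many small shifts. All 13 probe sets of Hexa and all 9 of Naglu were lower and 0 passed. All 15 of Atp6v1c1 and all 10 of Atp6v0d1 were higher and 0 passed, as for 16 of 18 for Tfe3. For Gla 9 of 11 were higher and 0 passed, with 1 at 1.27 that weighs on the mean. By role, 226 of 294 hydrolase probe sets were lower and 54 passed as lower with 0 as higher, beside 2.68% and 2.32% of all probe sets. Of 143 V-ATPase probe sets 101 were higher, 8 passing as higher and 1 as lower. Of 64 membrane protein probe sets 9 passed as lower, and of 30 precursor probe sets 8 did, with 0 as higher in both. Of 39 for the transcription factors 0 passed. The shares given are over probe sets of every brightness, and a share for brighter probe sets alone was not computed. Probe sets of 1 gene read the same RNA and are not replicates.

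**Figure D4:**
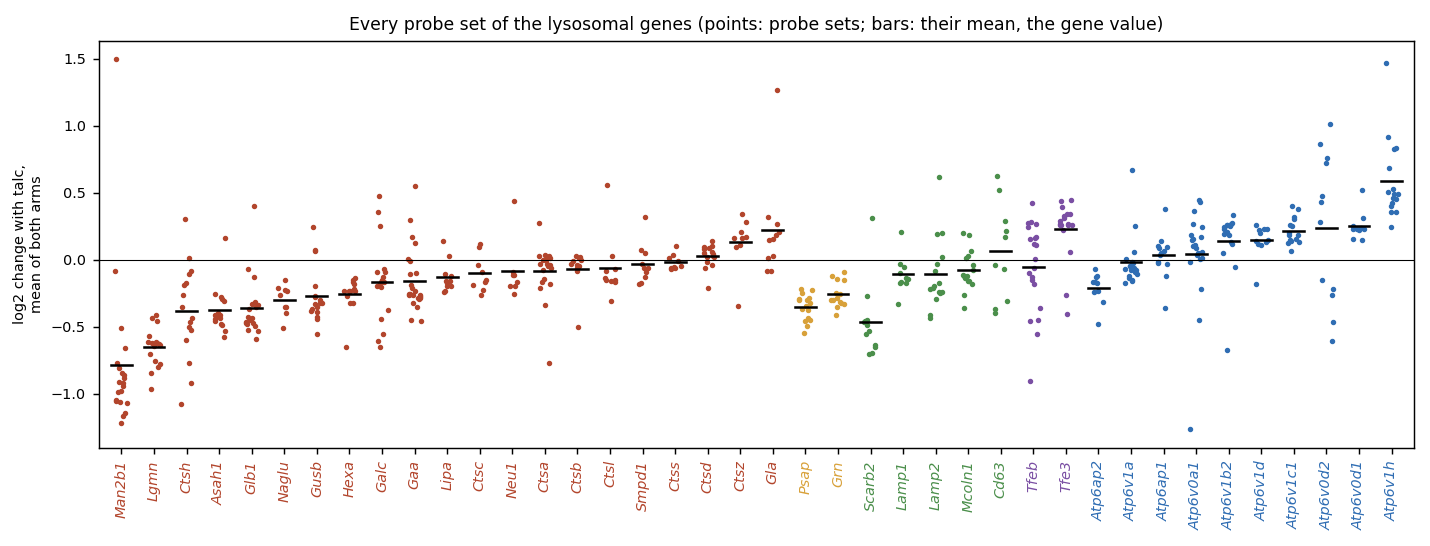
Difference between talc and control, averaged over both comparisons and in log2 units, for every probe set of the 40 genes, with a bar for their mean, which is the gene's value. The probe sets of Lgmn, Psap and Atp6v1h all lie on the same side of 0, those of Atp6v0d2 fall on both sides, and single probe sets of Man2b1 and Gla stand far above the rest.

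Further genes of the same pathways were listed by role and described by the average over both comparisons, in which 7.92% of all genes rose and 6.87% fell, or 14.9% and 12.8% of genes above the median level. Of 36 other lysosomal hydrolases 12 fell and 3 rose, with a median of -0.18: the N-acylethanolamine amidase Naaa (-0.87 ± 0.08), the sulfatases Arsb (-0.78 ± 0.07) and Sgsh (-0.97 ± 0.10) and the thioesterase Ppt1 (-0.65 ± 0.07) fell. Of 23 other V-ATPase subunits and assembly factors 5 rose and 1 fell, with 20 positive and a median of 0.15. The assembly factor Tmem199 (0.64 ± 0.10), the V0 subunits Atp6v0b (0.34 ± 0.06) and Atp6v0a2 (0.36 ± 0.07), and Dmxl2 (0.40 ± 0.08), which acts in reassembly of the pump, were among those that rose. Of 31 other membrane and transport proteins 4 rose and 3 fell, among them the peptide transporter Slc15a3 (0.54 ± 0.07) and Cln3 (0.44 ± 0.09) upward and the channel Tpcn1 (-0.82 ± 0.12) and the cholesterol exporter Npc1 (-0.35 ± 0.06) downward. These last counts are near the shares for genes above the median level.

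Counts in the smaller lists were also mostly near those shares of 14.9% higher and 12.8% lower. Of 15 genes that sort enzymes to lysosomes 3 rose and 1 fell: the mannose 6-phosphate receptors Igf2r (0.46 ± 0.10) and M6pr (0.21 ± 0.06) and the adaptor Gga1 (0.32 ± 0.09) rose, and Gga2 fell (-0.31 ± 0.10). Of 24 genes that control the MiT factors at the lysosome 2 rose and 2 fell, the GTPase Rraga (0.48 ± 0.08) and the kinase Mtor (0.25 ± 0.07) against Tsc2 (-0.28 ± 0.08) and Lamtor4 (-0.33 ± 0.10). Of 30 autophagy and MiT target genes 6 rose and 3 fell, including the cargo receptor Sqstm1 (0.63 ± 0.06), Nrbf2 (0.37 ± 0.07) and Atg7 (0.34 ± 0.06) upward and Map1lc3b (-0.31 ± 0.07) downward.

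Of 24 genes that respond to lysosome damage 4 rose and 1 fell, beside the same 14.9% and 12.8%, with Pi4k2a (0.33 ± 0.07), Vcp (0.25 ± 0.07) and Atg2b (0.24 ± 0.06) higher and the galectin Lgals9 (-0.55 ± 0.11) lower. Of 10 cystatins and serpins that inhibit proteases 2 rose and 1 fell, again near those shares. Cstb, the cytosolic inhibitor of cysteine cathepsins, rose by 0.75 ± 0.07 (adjusted p = 2.1e-06), as did Serpinb9 (0.42 ± 0.14), and the cathepsin inhibitor Cst7 fell (-0.49 ± 0.09).

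With TiO2 at the same dose and time, 0 of the 40 lysosomal genes passed in any comparison with its control. Against vehicle 0 passed, as did 0% of all genes, and 0 had an unadjusted p under 0.05. Within estradiol 0 passed, beside 0.00433% of all genes, and Ctsh alone had an unadjusted p under 0.05 (0.036, adjusted p = 0.53). On the average of both comparisons 0 of the 40 and 0% of all genes passed, and 2 of the 40, Ctsh and Tfe3, had an unadjusted p under 0.05. Differences ran from -0.27 ± 0.10 for Ctsh to 0.13, and Tfe3 was at -0.17 ± 0.07 (adjusted p = 0.49). All 40 of the 95% intervals of that average lay between -0.49 (Ctsh) and 0.37 (Cd63).

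Set directly against TiO2, talc gave 13 of 40 genes that passed, beside 9.96% of all genes and 18.3% of genes above the median level. Of these, 5 were higher and 8 lower, beside 4.61% and 5.35% of all genes and 8.08% and 10.2% of genes above the median level. The 5 higher were Gla, Tfe3, Atp6v0d2, Atp6v1c1 and Atp6v1h, and the 8 lower were Lgmn, Hexa, Glb1, Gusb, Man2b1, Naglu, Psap and Scarb2. These are the comparisons in which the 2 particles differ at 1 dose, and they use the same talc arrays as above. The count of 13 was 8 without talc replicate 2 and 6 without talc replicate 3. With estradiol present, the median difference between talc and TiO2 was 0.08 over genes above the median level and -0.01 over all genes. In that comparison 3 of 40 passed, beside 9.53% of all genes and 17% of genes above the median level. Tfe3 was higher, and Lgmn and Man2b1 were lower, 1 and 2 genes beside 6.66% and 2.87% of all genes and 12.9% and 4.17% of genes above the median level. That count is not above the background, and it depended on the setting. With genes below the median level left out 11 passed, with a trended robust variance 10 and with array medians subtracted 6. The count was 5 with the brightest or the median probe set, quantile normalisation or array weights, and 5 without TiO2 replicate 2. It was 1 in the fit on the arrays compared alone. The shares of all genes that passed under these settings are not given here, so these counts have no background beside them.

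The TiO2 arrays of Lgmn read 10.68, 10.84 and 10.79 without and 10.75, 10.68 and 10.71 with estradiol, and the talc arrays differed from them by -0.69 ± 0.09 (adjusted p = 0.00018) and -0.47 ± 0.09 (adjusted p = 0.0044). Those of Man2b1 read 10.27, 10.39 and 10.34 without and 10.29, 10.27 and 10.42 with estradiol, and the talc arrays differed from them by -0.88 ± 0.11 (adjusted p = 9e-05) and -0.78 ± 0.11 (adjusted p = 0.00046). In both genes each talc array lay below each TiO2 array. For Scarb2 the TiO2 arrays read 8.88, 8.87 and 9.06, and with estradiol 8.71, 8.70 and 8.72, and the difference without estradiol was -0.52 ± 0.13 (adjusted p = 0.015). For Psap they read 11.38, 11.42 and 11.30, and 11.23, 11.40 and 11.40, with -0.39 ± 0.09 (adjusted p = 0.014). The Scarb2 call was lost in 4 of 26 settings, among them without talc replicate 3 or TiO2 replicate 3, and the Psap call in 2, of which 1 was without talc replicate 3.

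The glycosidases showed the same separation without estradiol. Hexa read 11.98, 11.99 and 11.96 in TiO2 and 11.86, 11.79 and 11.98 with estradiol, and talc differed by -0.41 ± 0.09 (adjusted p = 0.005). Glb1 read 9.08, 9.01 and 9.26, and 9.19, 9.11 and 8.97, with -0.40 ± 0.10 (adjusted p = 0.018). Gusb read 10.25, 10.26 and 10.28, and 10.14, 10.21 and 10.19, with -0.40 ± 0.09 (adjusted p = 0.0066). In each of these 3 genes the talc and TiO2 arrays did not overlap. Naglu read 9.73, 9.98 and 9.88, and 9.59, 9.78 and 9.75, with -0.52 ± 0.10 (adjusted p = 0.0036). Gla read 8.65, 8.65 and 8.78, and 8.53, 8.50 and 8.54, with 0.33 ± 0.10 (adjusted p = 0.041), a call lost in 15 of 26 alternative settings. The Glb1 call was lost in 5 of 26, among them without talc replicate 2, talc replicate 3 or TiO2 replicate 3, those of Gusb and Naglu in 3 each and that of Hexa in 2.

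Among the genes that were higher, Atp6v1h read 8.23, 7.88 and 8.24 in TiO2 and 8.04, 8.07 and 8.29 with estradiol, against which talc alone stood 0.61 ± 0.13 higher (adjusted p = 0.0051). Atp6v1c1 read 10.30, 10.12 and 10.42, and 10.17, 10.32 and 10.35, with 0.35 ± 0.10 (adjusted p = 0.03). Both had all talc arrays above all TiO2 arrays. Tfe3 read 7.60, 7.99 and 7.94, and 7.72, 7.79 and 7.77, with 0.38 ± 0.10 (adjusted p = 0.02) and, with estradiol, 0.41 ± 0.10 (adjusted p = 0.014). Atp6v0d2 read 2.68, 2.63 and 2.54, and 2.55, 2.83 and 2.42, with 0.46 without estradiol (adjusted p = 0.048), a call lost in 20 of 25 alternative settings. The Tfe3 and Atp6v1c1 differences from TiO2 without estradiol lost their calls in 7 and 9 of 26 settings, among them without any 1 of the talc arrays. The Tfe3 difference with estradiol lost its call in 4 of 26: with the brightest probe set, after quantile normalisation, in the fit on the arrays compared alone and without talc plus estradiol replicate 1.

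The remaining genes that passed in a talc comparison did not pass against TiO2. Asah1 varied most within TiO2, at 10.01, 9.31 and 9.82, beside 9.74, 9.77 and 9.74 with estradiol. Ctsh read 5.62, 5.86 and 5.90, and 5.63, 5.53 and 5.85. Grn read 11.57, 11.69 and 11.63, and 11.60, 11.64 and 11.59, and Atp6v0d1 read 10.39, 10.41 and 10.32, and 10.27, 10.25 and 10.30. The TiO2 arrays of Grn and Atp6v0d1 lay apart from every talc array, although these differences did not pass. Those of Ctsh overlapped the talc arrays, and those of Asah1 did so without estradiol.

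**Figure D5:**
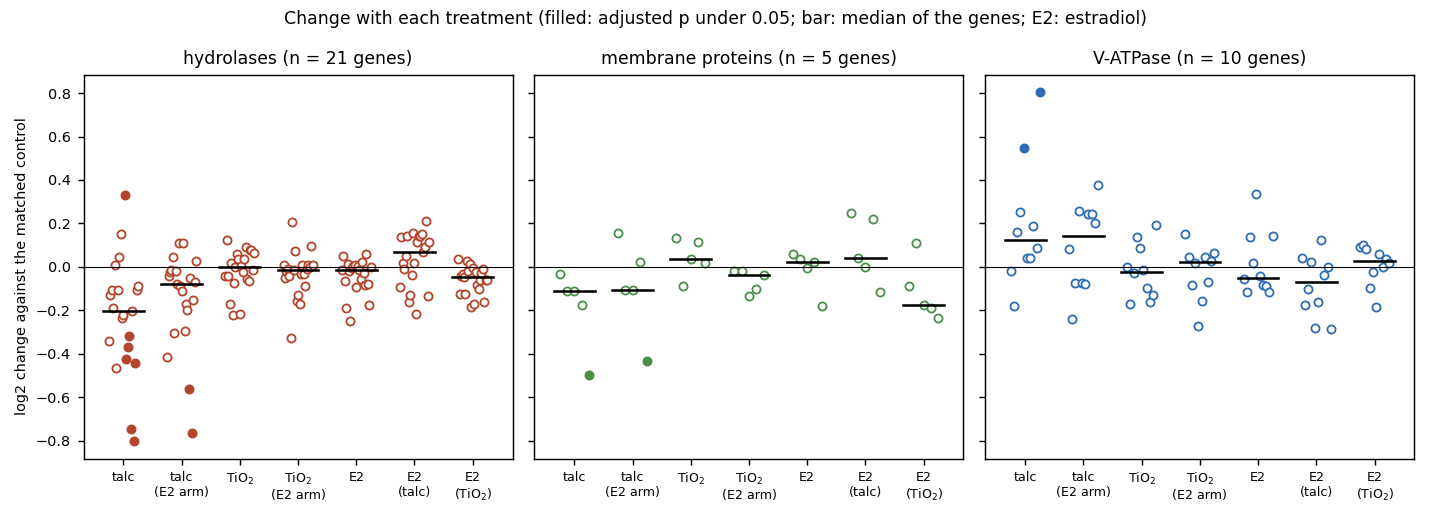
Differences under each particle and under estradiol (E2), in log2 units, for the hydrolases, membrane proteins and V-ATPase genes, with points for genes, filled where they passed, and a bar for the median. The 2 talc columns have medians of -0.21 and -0.08 for hydrolases and 0.13 and 0.14 for V-ATPase genes, and filled points occur in the talc columns alone.

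Estradiol alone, with talc or with TiO2 changed none of the 40 genes at the threshold. Against vehicle 0 passed, as did 0% of all genes; 2 had an unadjusted p under 0.05, Atp6v0d2 (0.34 ± 0.14, adjusted p = 0.99) and Ctsl (-0.25 ± 0.11). On talc 0 of the 40 and 0% of all genes passed, and 3 of the 40, Mcoln1 (0.22), Gla (-0.22) and Atp6v1h (-0.29 ± 0.13), had an unadjusted p under 0.05. On TiO2 0 of the 40 passed, beside 0.00866% of all genes, and 0 had an unadjusted p under 0.05. Averaged over the 3 arms 0 of the 40 and 0% of all genes passed, 3 of the 40 had an unadjusted p under 0.05, and changes ran from -0.18 ± 0.07 for Scarb2 to 0.07.

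Whether estradiol altered the response to talc was tested as an interaction, the talc change within estradiol minus that against vehicle. Of the 40 genes 0 passed, as did 0% of all genes. The 2 with an unadjusted p under 0.05 were Atp6v0d2 at -0.62 ± 0.20 (95% interval -1.04 to -0.20, adjusted p = 0.64) and Atp6v1h at -0.43 ± 0.18 (adjusted p = 0.73). Atp6v0d2 was dim, so its values say little about the transcript. Of the 21 hydrolases 17 had a positive interaction, and the median of the 40 was 0.08, beside 0.00 over all genes and 0.04 over genes above the median level. The interaction of Naglu was 0.29 ± 0.15 (adjusted p = 0.8). The interaction of TiO2 and estradiol gave 0 of 40 genes, 0% of all genes and 0 with an unadjusted p under 0.05. The median standard error of an interaction over all genes was 0.21, beside 0.15 for a single comparison.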

How the data were processed

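Total RNA of J774 cells was measured on 18 single-channel arrays. The authors deposited a linear intensity for each of 269751 probe sets, made with RMA per the submitters' processing notes; its version and filters are not given in the sources used here. RMA equalises arrays, so a shift of all genes together cannot be seen. For this work each deposited intensity was put on the log2 scale. Of the probe sets 233753 had 1 gene symbol in the platform annotation, 5106 several and 30892 none; 2247 symbols were updated, and single-symbol probe sets were averaged per gene. limma 3.58.1 in R 4.3.3 fitted the 6 group means to all 23102 genes, without filter or covariates, two-sided with Benjamini-Hochberg adjustment within each comparison. The code was tested on simulated data. Genes with full values were those of the 40 that passed in a talc comparison, alone, averaged or against TiO2 (17 genes); related genes named were the 4 most significant that passed per list. The 40 genes and all lists were chosen with earlier results of these data known. Alternatives were a floor on level, other probe set summaries, array scalings, variance models, fewer arrays, and, added after seeing the data, each probe set alone.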

Additional observations from a re-analysis of the deposited data

How the results depend on the processing

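Each count of the 40 genes that passed was recomputed under the other settings and with each array left out. The shares of all genes that passed under each of these are not given here. Against vehicle 11 passed with talc; the brightest probe set gave 4, the median of probe sets 7, a fit on the arrays compared alone 6, and leaving out 1 array 4 to 13, with 4 without talc replicate 3, 5 without vehicle replicate 3 and 7 without vehicle replicate 2. Within estradiol 3 passed; genes above the median level gave 7, a trended robust variance 11, array weights 6, and leaving out 1 array 2 to 3. On average 16 passed, 8 with the brightest probe set and 13 to 17 without 1 array. Talc against TiO2 gave 13, with 6, 5 and 3 for the brightest probe set, the median of probe sets and the arrays compared alone, and 6 to 13 without 1 array (8 without talc replicate 2, 6 without talc replicate 3). With estradiol 3 passed; genes above the median level gave 11, the brightest probe set 5, the median of probe sets 5, quantile normalisation 5, subtracted array medians 6, trended robust variance 10, array weights 5, the arrays compared alone 1, and leaving out 1 array 2 to 5 (5 without TiO2 replicate 2). TiO2, estradiol and interaction counts stayed at 0 under every setting run. The average split of 5 higher and 11 lower became 2 and 6 with the brightest probe set, 1 and 11 with the median of probe sets, and 2 and 11 after quantile normalisation. The hydrolase median of -0.13 was -0.16 with the brightest probe set and -0.19 with the median of probe sets, -0.15 to -0.10 without 1 array; the precursor median of -0.31 was -0.18 with the brightest probe set, and that of Tfeb and Tfe3, 0.09, was 0.21 with the median of probe sets. The cause of these shifts was not tested. For the 17 named genes 1027 of the recomputed values kept side and direction, 192 lost the call and 0 reversed. The average calls of Lgmn, Glb1, Man2b1, Asah1, Psap, Scarb2 and Atp6v1h held in all 26 settings. No paired analysis was possible because the labels give the groups no shared replicate numbers. The replicate numbers used here are the order of deposit within a group and are not taken from the labels. Serial numbers in the array titles run in blocks by group, so group and serial order cannot be told apart.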
